A study of Mus musculus with 2 samples.

Results

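The hedgehog pathway was followed through 9 genes (Shh, Dhh, Ptch1, Smo, Gli1, Gli2, Gli3, Hhip and Gas1), listed by name, out of 25814 genes counted in at least 1 library. All 9 had counts in both libraries. The libraries held cells sorted by FACS for GFP from the brain and from the lung of adult Nestin-GFP mice of about 6 weeks, after dissociation in trypsin, and were captured on a 10x droplet system. There was 1 library per tissue, and the study set them side by side to look in lung tissue for counterparts of the brain's neural stem cells (NSCs). Both groups carried the same reporter and no other treatment or allele is given. The labels name the strain C57BL/6, whereas the study's methods describe its transgenic lines as bred on CD1 or a mixed CD1/C3H stock. The number of mice per library is not given in the sources used here.

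Hedgehog ligands (Shh, Dhh and Ihh) are secreted proteins that bind the receptor Ptch1. Without ligand Ptch1 holds the membrane protein Smo inactive, and with ligand Smo moves into the primary cilium and acts on the Gli transcription factors. Gli2 is the main activator, Gli3 is largely a repressor in the absence of ligand, and Gli1 is an activator whose own transcription, like that of Ptch1 and Hhip, is switched on by the pathway. Hhip is a membrane protein that binds and sequesters the ligands, while Gas1 is a membrane co-receptor that presents them to Ptch1 together with Cdon and Boc. In the adult lung the pathway is known for signalling from epithelium to mesenchyme, and in the adult brain for its action on stem cells of the subventricular zone.

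The annotated positions (GRCm38, GENCODE M21) were chr5:28456815-28467256 for Shh, chr15:98891152-98898540 for Dhh, chr13:63508328-63573598 for Ptch1, chr6:29735503-29761365 for Smo, chr10:127329882-127341974 for Gli1, chr1:118834132-119053619 for Gli2, chr13:15463235-15730026 for Gli3, chr8:79965851-80058006 for Hhip and chr13:60174405-60177365 for Gas1. Smo and Gli3 are on the plus strand and the others on the minus strand. RefSeq promoters (GRCm38.p6), taken as the 250 bases before RefSeq's gene start, were at hand for 7 of the 9 genes, all but Shh and Gli1. For Ptch1 and Gli3 that start, and so the window, lies inside the GENCODE gene given above. The following 4 are shown because the results turn on these genes: Hhip and Gas1 for the lung mesenchymal classes, Dhh for the lung endothelial-like cells and Gli2 for the brain classes. Capitals mark the GC box (GGGCGG or its reverse complement CCGCCC), the motif bound by Sp1-type factors. They are minus-strand sequences written 5′ to 3′, at chr8:80058009-80058258 for Hhip, chr15:98898541-98898790 for Dhh, chr13:60177536-60177785 for Gas1 and chr1:119053620-119053869 for Gli2.
Hhip: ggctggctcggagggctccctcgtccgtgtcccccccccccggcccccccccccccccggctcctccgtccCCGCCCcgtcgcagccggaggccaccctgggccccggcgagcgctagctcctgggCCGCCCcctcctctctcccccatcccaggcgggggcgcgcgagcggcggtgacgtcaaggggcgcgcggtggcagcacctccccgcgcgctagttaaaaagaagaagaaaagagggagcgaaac
Dhh: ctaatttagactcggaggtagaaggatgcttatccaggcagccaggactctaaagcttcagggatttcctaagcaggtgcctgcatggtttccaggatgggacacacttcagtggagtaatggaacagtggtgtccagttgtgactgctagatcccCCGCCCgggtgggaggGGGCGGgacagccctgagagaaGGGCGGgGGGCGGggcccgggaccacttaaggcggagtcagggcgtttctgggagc
Gas1: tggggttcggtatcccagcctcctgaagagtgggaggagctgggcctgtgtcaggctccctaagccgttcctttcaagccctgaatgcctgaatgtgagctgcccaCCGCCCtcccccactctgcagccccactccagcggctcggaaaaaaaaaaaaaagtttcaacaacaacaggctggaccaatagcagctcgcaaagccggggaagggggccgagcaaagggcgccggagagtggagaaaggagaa
Gli2: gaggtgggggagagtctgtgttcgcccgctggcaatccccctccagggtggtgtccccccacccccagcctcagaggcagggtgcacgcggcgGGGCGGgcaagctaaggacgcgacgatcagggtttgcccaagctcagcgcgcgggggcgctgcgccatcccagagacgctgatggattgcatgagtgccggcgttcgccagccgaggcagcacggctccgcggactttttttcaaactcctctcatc

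The Gli consensus GACCACCCA was found on neither strand of these 250 bases in any of the 7 promoters, against 74 of 32851 mouse promoters of the same length (0.225%). Its relaxed form GACCNCCCA, which includes the former, was likewise in 0 of 7 and in 285 promoters (0.868%). The GC box was in 6 of the 7 (all but Smo) and in 10756 promoters (32.7%). Dhh held 4 of them, Hhip and Gli3 each held 2, and Gli2, Gas1 and Ptch1 each held 1. The GC content of the 7 windows ran from 58.8% (Gas1) to 78.4% (Ptch1). A missing match says only that these letters are not in these windows.

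The deposited tables held 4640 barcodes with 26221173 UMIs for the brain and 5981 barcodes with 36816962 UMIs for the lung. After the study's limits on genes and mitochondrial share, 4151 brain cells (median 4209 UMIs) and 5608 lung cells (median 5585 UMIs) were kept. They were clustered without any hedgehog gene among the variable genes and named from cell type markers, with the suffix "-like". This gave 12 brain classes and 8 lung classes, and left 146 brain cells (3.52%) and 937 lung cells (16.7%) unnamed. A level is given as CPM, the UMIs of a gene per 1000000 UMIs, from the UMIs summed over a class. The interval in parentheses is the exact 95% Poisson interval, or the exact Clopper-Pearson interval for a share of cells and the exact conditional binomial interval for a ratio. These intervals cover counting error only. With no replicate library there is no test between groups, and between brain and lung the tissue and the library cannot be told apart. In a comparison, a gene was called different when its ratio of CPM was at least 2 or at most 0.5, with at least 20 UMIs in the 2 classes together. A gene can reach that minimum through the class where it is high.

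The marker lists separated the lung classes that the following results turn on. The summed level of the pericyte markers was 14801 CPM in the 1780 pericyte-like cells, 896 in the 1003 myofibroblast-like, 3114 in the 695 matrix fibroblast-like and 370 in the 613 endothelial-like cells. The myofibroblast markers summed to 7549 CPM in myofibroblast-like cells against 295 in pericyte-like cells, and the endothelial markers to 9866 CPM in endothelial-like cells against 29.4 in pericyte-like and 19.6 in myofibroblast-like cells. The name matrix fibroblast-like is looser. Cluster 2, with 556 of its 695 cells, had 5 of 10 markers in at least 20% of cells and was led by Serpinf1, Mfap5, Gpc3, Dcn and Cpz. Tcf21, one of the 10, was at 254 CPM in the whole class and at 248 CPM in pericyte-like cells. In the brain, quiescent NSC (qNSC)-like and astrocyte-like cells were close: the qNSC markers summed to 6272 CPM in the former and 6100 in the latter, where Vnn1 was at 0, and the astrocyte markers to 9266 and 15684. Nes, the gene that the gate reports, was at 537 CPM in pericyte-like, 535 in myofibroblast-like and 24.5 in matrix fibroblast-like cells, and at 46.4 CPM in qNSC-like and 5.20 in astrocyte-like cells.

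**Figure D1:**
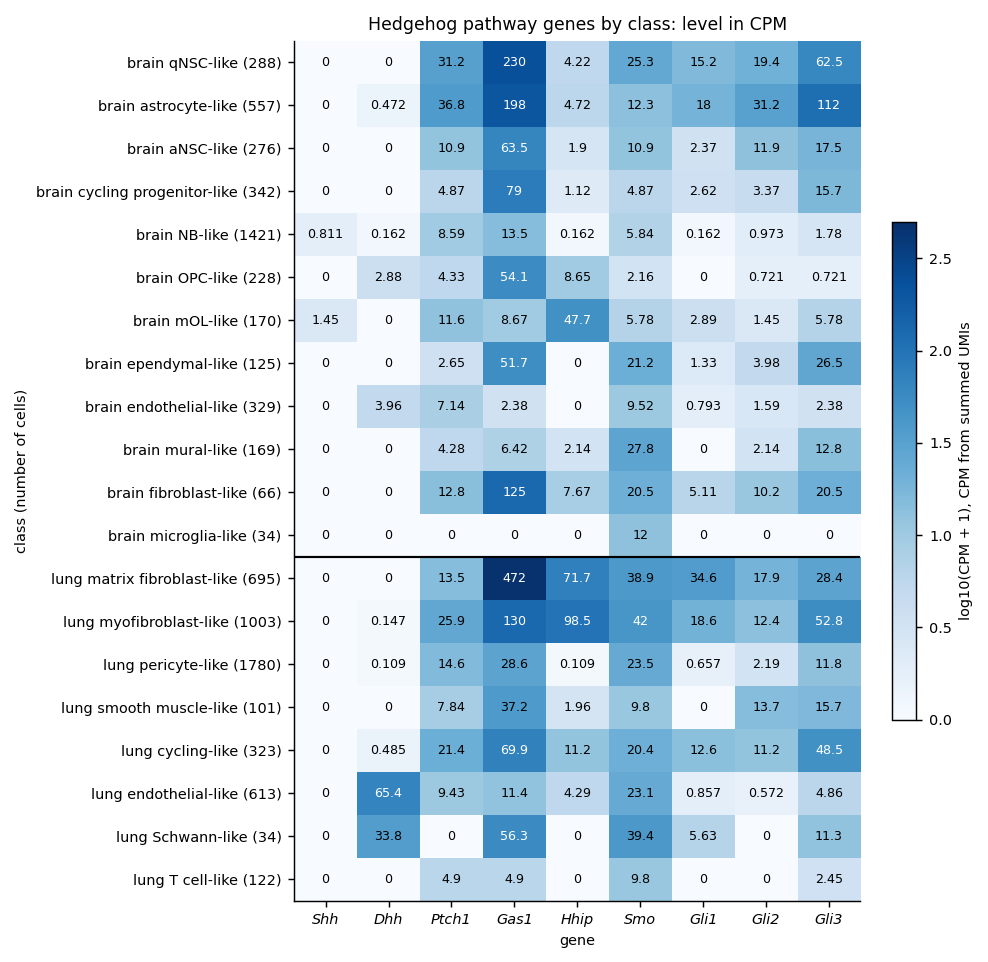
Level of each hedgehog pathway gene (columns) in every named class (rows, with the number of cells; brain above the line, lung below it), printed in CPM and coloured by log10(CPM + 1). Dhh is high in lung endothelial-like cells (65.4 CPM), Hhip in lung myofibroblast-like and matrix fibroblast-like cells (98.5 and 71.7 CPM) and Gli3 in astrocyte-like and qNSC-like cells (112 and 62.5 CPM), while Shh has 6 UMIs in the brain and 1 in the lung.

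Shh, the ligand that lung epithelium and many neurons secrete, was almost undetected in these sorted cells. No lung cluster was named epithelial-like, and 18 lung cells were picked as epithelial by markers per cell. No brain cluster was named as mature neurons. The Shh counts therefore speak only for the classes that were captured. The brain library had 6 UMIs in 3 cells, of which 5 UMIs were in neuroblast (NB)-like cells and 1 was in a mature oligodendrocyte (mOL)-like cell. The lung library had 1 UMI, in the unnamed cluster 6. Lung endothelial-like cells had none, and 3 UMIs, the limit that a count of 0 allows, would be 0.857 CPM there. The same limit in the pooled lung mesenchymal classes (pericyte-, myofibroblast-, matrix fibroblast- and smooth muscle-like cells), which also had none, was 0.136 CPM.

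Dhh, the ligand best known from Sertoli cells, Schwann cells and endothelium, was largely an endothelial transcript in the lung gate. The lung library held 241 Dhh UMIs and 229 of them were in endothelial-like cells, which were 10.9% of the cells. Their level was 65.4 CPM (57.2–74.5) and 154 of 613 cells, or 25.1% (21.7–28.8), had a Dhh UMI. Scaled to 1000 UMIs per cell, that share was 6.21%. No endothelial-like cell held more than 5 Dhh UMIs. Pericyte-like and myofibroblast-like cells had 1 UMI each and matrix fibroblast-like cells none, so that the pooled mesenchymal classes stood at 0.0906 CPM, a ratio to endothelial-like cells of 0.00139 (0.000167–0.00506). Dhh shares exonic bases with its neighbour Rhebl1 (546 bases, same strand) and with the antisense gene Gm49442 (1107 bases), and the strand setting of the counting is not given. Rhebl1 was at 5.14 CPM in lung endothelial-like and 9.88 CPM in myofibroblast-like cells, and no level of Gm49442 was taken. The part of shared bases in the Dhh counts was not tested.

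Within the lung endothelial-like cells Dhh was concentrated in 1 cluster. Cluster 4, led by Vwf, Lyve1, Stmn2, Ptprb and Gja5, held 211 of the UMIs at 99.4 CPM (86.5–114), with a UMI in 35.0% of cells (30.3–40.0), or 8.80% at 1000 UMIs. Cluster 10, led by the capillary genes Scn7a, Cd36, Gpihbp1 and Hpgd, was at 11.3 CPM (5.66–20.3), and cluster 17, led by Fabp4, Rbp7 and Cd300lg, at 17.2 CPM (6.93–35.5). The level in cluster 4 was 7.6 times (4.70–13.1) that in the other two together. Ptch1 and Gas1 were also higher in cluster 4, at ratios of 2.92 (1.18–8.65) and 2.59 (1.17–6.52). Without called doublets the ratio was 2.73 (1.09–8.18) for Ptch1 and 1.71 (0.627–5.38) for Gas1, whose interval then included 1. Endothelial-like cells with a UMI of Ednrb or Apln, genes of alveolar capillary cells, had 74.8 CPM of Dhh and those without had 51.0 CPM (ratio 1.47, 1.1–1.97), a split chosen after the levels were seen.

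Outside the endothelium Dhh was seen in 6 UMIs of the 34 lung Schwann-like cells, at 33.8 CPM (12.4–73.5) and in 17.6% of cells. In the brain 5 of the 11 Dhh UMIs were in endothelial-like cells, at 3.96 CPM (1.29–9.25) and in 1.22% of cells, and 4 were in oligodendrocyte precursor (OPC)-like cells, at 2.88 CPM. Lung endothelial-like cells thus had 16.5 times (6.97–51.3) the Dhh level of brain endothelial-like cells. The brain side of that ratio rests on 5 UMIs, and whether these were free RNA was not tested. With the largest cluster left out on the lung side (cluster 4), the ratio was 3.30. Brain endothelial-like cells formed a single cluster and stayed whole. Of the 5 pathway genes with enough UMIs between these 2 classes, 4 were past 2-fold higher in the lung, where 13.9% of all genes were higher and 11.3% lower. These were Dhh, Gas1 (4.81), Smo (2.43) and Gli3 (2.04, 0.591–10.9), and without called doublets, which held 19 of the 40 lung endothelial Gas1 UMIs, the ratio of Gas1 was 3.81. The interval of Gli3, whose 3 brain endothelial UMIs were all in called doublets, included 1, and Gli3 turned to 0.896 as a mean over cells and 0.785 with thinned counts. With cells picked by markers 2 of 4 genes were past 2-fold. Ptch1 was at 1.32.

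Ptch1, the receptor, had UMIs in many classes of both libraries, but in several of them too few to be told apart from free RNA (4 in lung smooth muscle-like, 2 in T cell-like and 6 in brain OPC-like cells). In the lung it was at 25.9 CPM (22.3–30.1) in myofibroblast-like, 21.4 (15.5–28.7) in cycling, 14.6 (12.2–17.3) in pericyte-like, 13.5 (10.6–16.9) in matrix fibroblast-like and 9.43 (6.49–13.2) in endothelial-like cells. A UMI was seen in 15.6%, 7.13%, 9.93% and 5.38% of myofibroblast-, pericyte-, matrix fibroblast- and endothelial-like cells, or 2.62%, 1.4%, 1.39% and 1.14% at 1000 UMIs per cell. Smooth muscle-like cells were at 7.84 CPM and T cell-like cells, of another lineage, at 4.90 CPM. In the brain Ptch1 was highest in astrocyte-like cells at 36.8 CPM (29.1–46.0) and qNSC-like cells at 31.2 CPM (22.0–43.0), with a UMI in 12.4% and 11.5% of cells (3.88% and 3.22% at 1000 UMIs). The other brain classes that had 5 UMIs or more ran from 4.33 CPM (OPC-like) to 12.8 CPM (fibroblast-like). Activated NSC (aNSC)-like cells had 10.9 CPM (6.91–16.4) and NB-like cells 8.59 CPM (6.44–11.2).

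Hhip, the ligand-binding antagonist, divided the lung mesenchyme most sharply. Of the 1173 lung UMIs, 668 (56.9%) were in myofibroblast-like cells at 98.5 CPM (91.1–106) and 404 (34.4%) in matrix fibroblast-like cells at 71.7 CPM (64.9–79.1). The 1780 pericyte-like cells, the largest class, held 1 UMI (0.109 CPM). The ratio to pericyte-like cells was 900 (161–35588) for myofibroblast-like and 655 (117–25951) for matrix fibroblast-like cells, where the wide upper bounds come from that single UMI. An Hhip UMI was in 24.4% of myofibroblast-like and 27.6% of matrix fibroblast-like cells, or 8.70% and 6.28% at 1000 UMIs. Positive cells held 2.73 UMIs on average in the former, up to 18 in 1 cell, and 2.10 in the latter, up to 9. In endothelial-like cells all 15 Hhip UMIs were in barcodes called as doublets, and 10 of them in 1 barcode of 10416 UMIs. Without that barcode the ratio of mesenchymal to endothelial-like cells moved from 11.4 (6.85–20.4) to 34.0 (14.5–105).

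Both Hhip-bearing classes were uneven. Among the myofibroblast-like cells, cluster 1 was at 165 CPM (152–179) with 36.2% of cells positive, and cluster 3 at 22.7 CPM (17.7–28.5) with 9.48% positive (13.7% and 2.35% at 1000 UMIs). The ratio was 7.30 (5.71–9.45). Gli1 was also higher in cluster 1, at a ratio of 1.70 (1.16–2.52). For the other pathway genes the ratio was 1.43 for Gli2, 1.21 for Smo, 1.19 for Ptch1, 0.959 for Gas1 and 0.862 for Gli3. Cluster 1 was led by genes that included Aspn and Fgf18, and by the airway secretory genes Scgb3a2 and Scgb1a1, whose UMIs in this cluster all came from 3 cells. In the 557 cells of cluster 1 without these 2 secretory transcripts Hhip was at 166 CPM (152–179). Among the matrix fibroblast-like cells Hhip was at 68.5 CPM in cluster 2, 95.2 in cluster 13 and 126 in the 28 cells of cluster 20. The last was 1.80 times (1.14–2.72) the level in the other two. Myofibroblast-like cells as a class exceeded matrix fibroblast-like cells by a ratio of 1.37 (1.21–1.56), but that order rested on cluster 1, and with the largest cluster of each class left out the ratio was 0.210.

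In the brain Hhip had 72 UMIs, and 33 of them (45.8%) were in the 170 mOL-like cells at 47.7 CPM (32.8–67.0), in 11.2% of cells (1.88% at 1000 UMIs). Cluster 18, 31 cells of a median of 13775 UMIs, was at 67.2 CPM with a UMI in 51.6% of cells, and cluster 10 at 23.0 CPM (ratio 2.93, 1.24–7.99). OPC-like cells had 8.65 CPM, astrocyte-like 4.72, qNSC-like 4.22 and endothelial-like cells none. These values leave out 152 Hhip UMIs of brain barcodes with 4000 genes or more. With no upper limit on genes the mOL-like level was 76.2 CPM, beside 69.6 CPM in lung matrix fibroblast-like cells, so the order of these classes depended on that limit.

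Gas1, the co-receptor, was highest in matrix fibroblast-like cells among the named classes. They held 2660 of its 5032 lung UMIs at 472 CPM (455–491), with a UMI in 81.2% of cells and 32.1% at 1000 UMIs. Another 1013 UMIs (20.1%) were in unnamed clusters. Myofibroblast-like cells were at 130 CPM (122–139), cycling cells at 69.9, Schwann-like at 56.3, smooth muscle-like at 37.2, pericyte-like at 28.6 (25.2–32.2) and endothelial-like cells at 11.4 CPM. The clusters of the leading class ran from 264 CPM (cluster 13) to 488 CPM (cluster 2). In the brain Gas1 was at 230 CPM (203–259) in qNSC-like and 198 CPM (179–218) in astrocyte-like cells, 125 in fibroblast-like, 79.0 in cycling progenitor-like, 63.5 in aNSC-like, 13.5 in NB-like and 2.38 CPM in endothelial-like cells. The 2 OPC-like clusters differed, at 135 CPM in cluster 12 and 8.97 CPM in cluster 14. Across both libraries the level in matrix fibroblast-like cells was 2.06 times (1.82–2.34) that in qNSC-like cells, the next class.

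**Figure D2:**
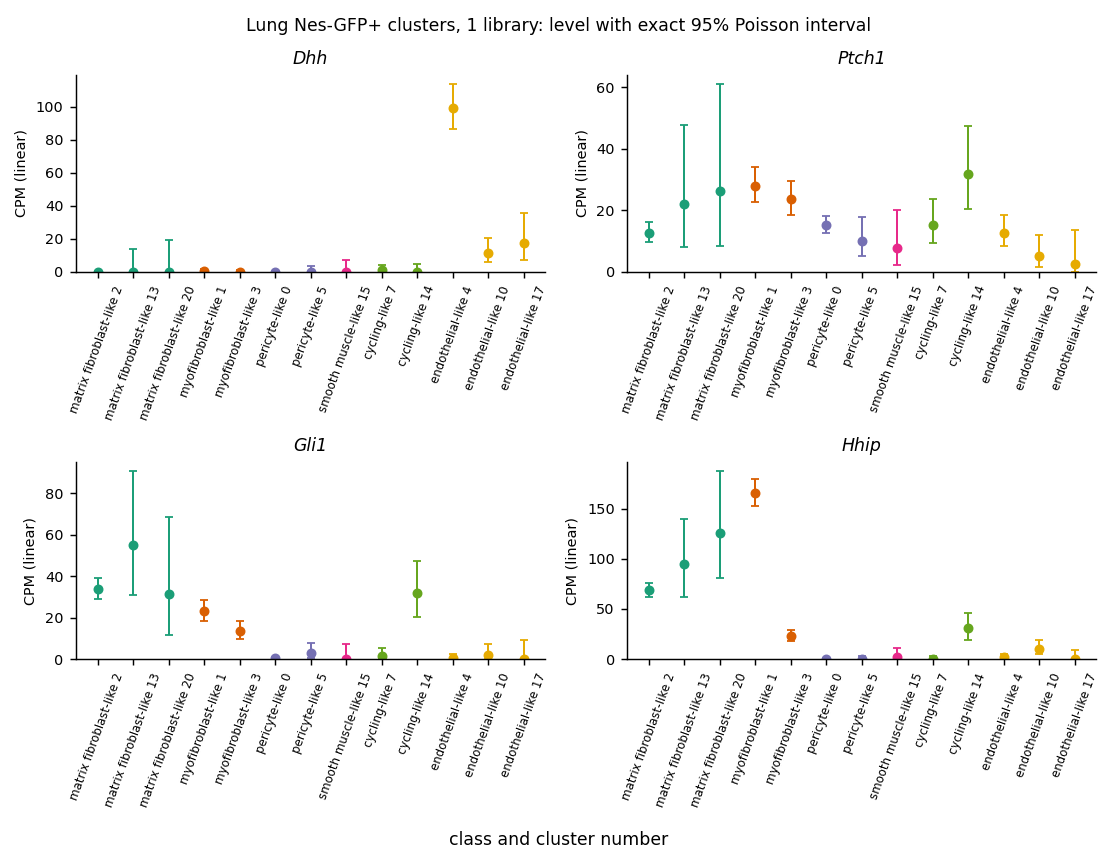
Level in CPM (linear axis) of Dhh, Ptch1, Gli1 and Hhip in each lung cluster of 6 classes, with the exact 95% Poisson interval as bars and the class as colour; unnamed, Schwann-like and T cell-like clusters are not drawn. Dhh stands out in endothelial-like cluster 4 (99.4 CPM), Hhip is at 165 CPM in myofibroblast-like cluster 1 and 22.7 CPM in cluster 3, and Gli1 and Hhip are low in the pericyte-like, smooth muscle-like and endothelial-like clusters.

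Smo, the signal transducer, had UMIs in all 20 named classes, but only 2 in microglia-like, 3 in OPC-like, and 4 each in mOL-like and T cell-like cells, which cannot be told apart from free RNA. In the lung it was at 42 CPM in myofibroblast-like (24.4% of cells), 38.9 in matrix fibroblast-like (26.2%), 23.5 in pericyte-like, 23.1 in endothelial-like, 20.4 in cycling and 9.80 CPM in smooth muscle-like cells. In the brain it was at 27.8 CPM in mural-like, 25.3 (17.1–36.1) in qNSC-like, 21.2 in ependymal-like, 12.3 (8.02–18) in astrocyte-like, 10.9 in aNSC-like, 5.84 in NB-like and 2.16 CPM in OPC-like cells.

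Gli1, the activator that is itself a target, was found in the lung mainly in the 2 mesenchymal classes that held Hhip and in part of the cycling cells, and 36 of its 393 UMIs (9.16%) were in unnamed clusters. Matrix fibroblast-like cells had 195 UMIs at 34.6 CPM (29.9–39.8), with a UMI in 23.0% of cells (3.52% at 1000 UMIs), and their 3 clusters were at 33.7, 54.9 and 31.4 CPM. Myofibroblast-like cells had 126 UMIs at 18.6 CPM (15.5–22.1), in 11% of cells (1.91% at 1000 UMIs), and lay below the former by a ratio of 0.536 (0.425–0.675). The far more numerous pericyte-like cells had 6 UMIs, at 0.657 CPM (0.241–1.43) and in 0.337% of cells, endothelial-like cells 3 UMIs (0.857 CPM), and smooth muscle-like and T cell-like cells 0. The exons of Gli1 overlap those of Arhgap9 on the opposite strand by 62 bases at the 3′ end. Arhgap9 had 0 UMIs in matrix fibroblast-like and 1 in myofibroblast-like cells, and was at 19.0 CPM in pericyte-like and 120 CPM in T cell-like cells. The part of shared bases in the Gli1 counts was not tested.

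The lung cycling cells were split in the same way. In cluster 14 Gli1 was at 31.8 CPM and in cluster 7 at 1.53 CPM (ratio 20.8, 5.16–182), Gli3 was at 82.2 and 29.1 CPM (ratio 2.83, 1.86–4.35), and Hhip had 23 UMIs against 0, at least 13.3-fold higher with 3 UMIs as the floor of cluster 7. Besides the cell cycle markers, the marker list with the next highest score was that of myofibroblasts in cluster 14 and that of pericytes in cluster 7. In the brain Gli1 had 76 UMIs. Astrocyte-like cells were at 18 CPM (12.7–24.6; 6.10% of cells) and qNSC-like cells at 15.2 CPM (9.0–24; 6.25%), against 2.37 in aNSC-like, 2.62 in cycling progenitor-like, 0.162 in NB-like (1 UMI) and 0 in OPC-like cells. Ranked over both libraries, matrix fibroblast-like cells led myofibroblast-like cells by 1.86 (1.48–2.35), and the next ranks, myofibroblast-like, brain astrocyte-like, qNSC-like and lung cycling cells, did not differ from their neighbours beyond the counting intervals.

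Gli2 and Gli3 followed a similar division with a broader range. Gli2 was at 17.9 CPM in matrix fibroblast-like, 13.7 in smooth muscle-like, 12.4 in myofibroblast-like, 11.2 in cycling, 2.19 in pericyte-like and 0.572 CPM (2 UMIs) in endothelial-like cells. The smooth muscle-like level of Gli2 came from 7 UMIs in 101 cells (5.52–28.3 CPM). That interval overlaps the one for the 0 Gli1 UMIs there, which reached 7.23 CPM. Gli3 was at 52.8 CPM (47.4–58.5) in myofibroblast-like, 48.5 in cycling, 28.4 in matrix fibroblast-like, 15.7 in smooth muscle-like, 11.8 in pericyte-like and 4.86 CPM in endothelial-like cells. In the brain both were highest in astrocyte-like cells, Gli2 at 31.2 CPM (24.1–39.7) and Gli3 at 112 CPM (98.2–127), with qNSC-like cells next at 19.4 and 62.5 CPM (49.0–78.4). A Gli3 UMI was in 33.6% of astrocyte-like and 20.8% of qNSC-like cells, or 11.3% and 6.88% at 1000 UMIs. NB-like cells had 0.973 CPM of Gli2 and 1.78 CPM of Gli3, and the 7 UMIs of Gli3 in cluster 15 (16 CPM) stood above the 0.396 and 0.936 CPM of the other NB-like clusters.

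Most of the pathway genes with enough UMIs differed between the pooled lung mesenchymal classes and endothelial-like cells, with the pooled Gli1 and Hhip coming from the myofibroblast-like and matrix fibroblast-like cells. In pericyte-like cells Gli1 (0.657 CPM) and Hhip (0.109 CPM) were not above the 0.857 and 4.29 CPM of endothelial-like cells. The 15 endothelial-like Hhip UMIs were all in called doublets, however. Of the 8 with enough UMIs, 5 were higher in the pooled mesenchymal classes and 1, Dhh, was lower, where 20.8% of all genes tested were higher and 13.7% lower past 2-fold. The ratios were 17.3 (5.86–84.3) for Gli1, 16.8 (4.60–140) for Gli2, 15.2 (11.1–21.3) for Gas1, 11.4 for Hhip and 5.91 (3.66–10.2) for Gli3, while Ptch1 (1.87, 1.31–2.75) and Smo (1.42) stayed within 2-fold. The 23 endothelial-like barcodes called as doublets held 19 of the 40 Gas1 UMIs of that class, and without called doublets the ratio was 27.3 for Gas1 and 31.7 for Gli2. Hhip then had 1061 UMIs against 0. With 10 CPM added to both levels, which draws the ratios of low genes towards 1, the median log2 ratio was 1.04 for the pathway genes and -0.00131 for all genes.

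Against pericyte-like cells, 5 of 7 genes were higher in myofibroblast-like cells, where 13.4% of all genes were higher and 11.1% lower, and 5 of 7 in matrix fibroblast-like cells, where 15.0% were higher and 17.3% lower. None of the 7 was lower in either. In myofibroblast-like cells these were Hhip, Gli1 (28.3, 12.6–78.5), Gli2 (5.66, 3.44–9.73), Gas1 (4.56) and Gli3 (4.46). In matrix fibroblast-like cells they were Hhip, Gli1 (52.7, 23.8–145), Gas1 (16.5), Gli2 (8.19) and Gli3 (2.40). The ratio of Gli1 fell to 10.6 and 14.4 in the 2 classes with cells picked by markers, and to 4.94 and 16.5 with the largest cluster of each class left out. Ptch1 and Smo were within 2-fold in both, and Ptch1 differed in its place, at 1.78 (1.41–2.25) in the former and 0.927 (0.690–1.24) in the latter. Both comparisons share the pericyte-like cells. Set directly against matrix fibroblast-like cells, myofibroblast-like cells had 1 of 7 genes past 2-fold, Gas1, lower at 0.276 (0.255–0.297), against 13.1% of all genes higher and 9.83% lower. Ptch1 (1.92), Gli3 (1.86) and Hhip (1.37) were higher and Gli1 (0.536) and Gli2 (0.690) lower, all within 2-fold. With the largest cluster of each class left out, 5 genes were past 2-fold.

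**Figure D3:**
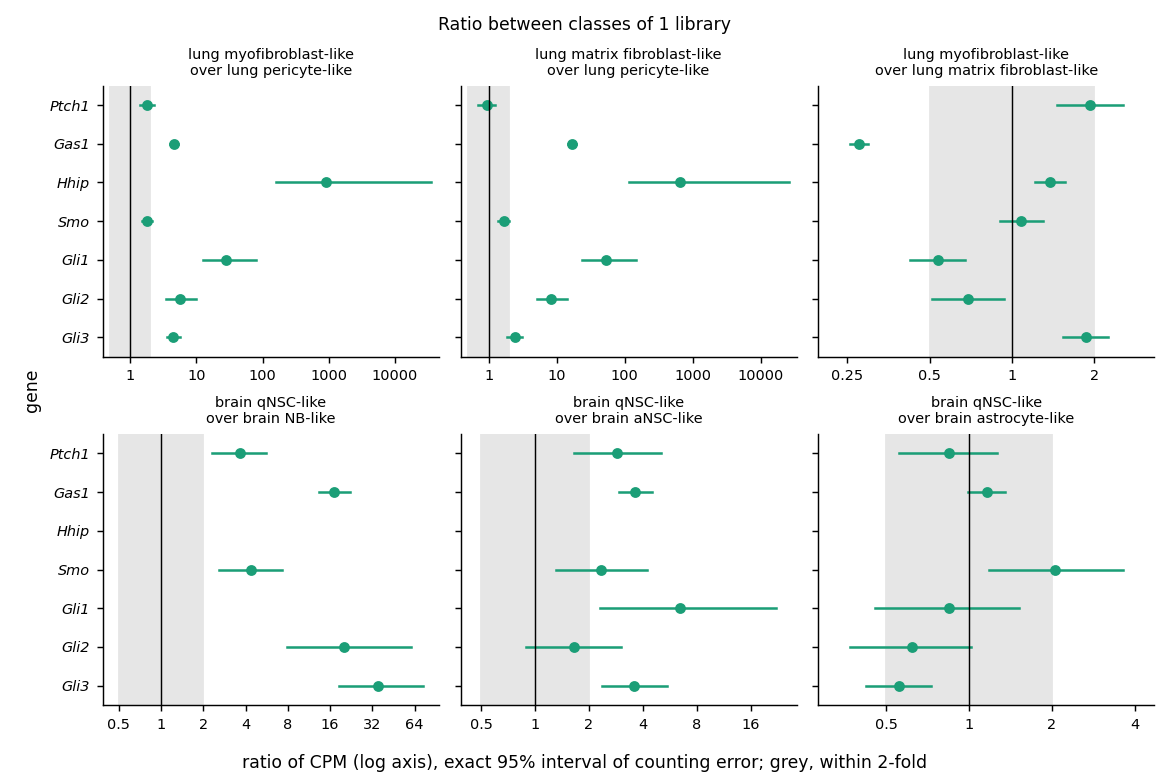
Ratio of CPM between classes of the same library (log axis) with its exact 95% interval of counting error; the grey band is within 2-fold and the line marks equal levels, and genes with fewer than 20 UMIs in the 2 classes are not drawn (Hhip in all 3 brain panels, Gli1 in the first). Hhip and Gli1 lie farthest from equality against pericyte-like cells (900 and 28.3 in myofibroblast-like cells), all 5 drawn genes exceed 2 for qNSC-like over NB-like cells, and 1 of 6, Smo at 2.06, exceeds 2 for qNSC-like over astrocyte-like cells.

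In the brain, 5 of 5 genes were higher in qNSC-like than in NB-like cells, where 22.2% of all genes were higher and 20.2% lower past 2-fold. They were Gli3 (35.0, 18.5–73.2), Gli2 (19.96, 7.90–59.9), Gas1 (17.1), Smo (4.34) and Ptch1 (3.63, 2.32–5.64), and Gli1 had 18 UMIs against 1. Against aNSC-like cells 5 of 6 were higher (21.2% of all genes higher and 19.4% lower): Gli1 (6.41, 2.29–22.1), Gas1 (3.61), Gli3 (3.56), Ptch1 (2.86, 1.66–5.05) and Smo (2.32). Gli2 was at 1.64. That comparison depended on how the cells were chosen, and when 140 qNSC and 42 aNSC cells were picked by markers per cell in place of clusters, Ptch1 was at 0.907 and Gas1 at 0.975. Against astrocyte-like cells 1 of 6 was past 2-fold, Smo at 2.06 (1.18–3.63), with 14.1% of all genes higher and 7.17% lower. That call was lost as a mean over cells (1.77), with thinned counts (1.80) and with the largest astrocyte-like cluster left out (1.05), where 3 of 6 genes were lower. Gli3 was lower at 0.558 (0.424–0.727), within 2-fold, and the intervals of Gli1 (0.846, 0.455–1.52) and Ptch1 (0.847, 0.557–1.27) included 1. Against brain endothelial-like cells 5 of 5 were higher (23.0% of all genes higher and 18.0% lower): Gas1 (96.5), Gli3 (26.3), Gli2 (12.2), Ptch1 (4.38) and Smo (2.66). The 3 Gli3 UMIs of endothelial-like cells were all in called doublets, and without these Gli3 had 72 UMIs against 0. These comparisons share the qNSC-like cells.

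**Figure D4:**
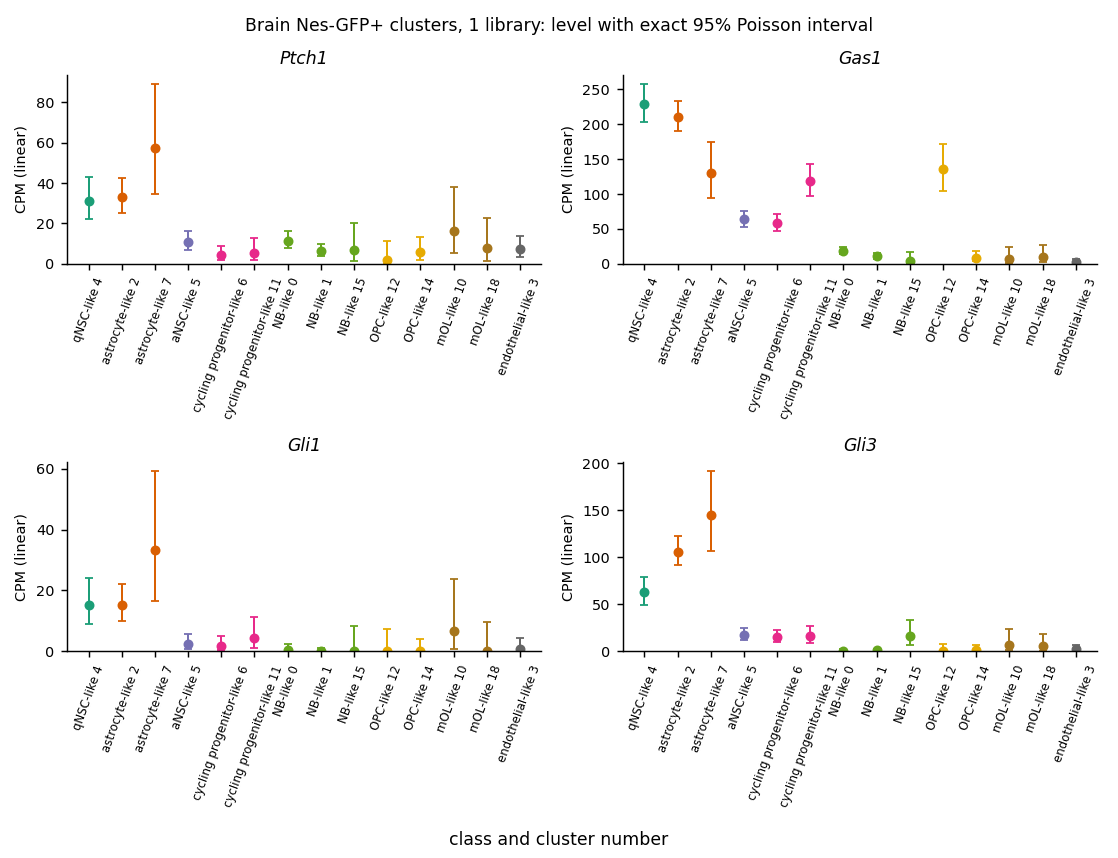
Level in CPM (linear axis) of Ptch1, Gas1, Gli1 and Gli3 in each brain cluster of 8 classes, with the exact 95% Poisson interval as bars and the class as colour; ependymal-, mural-, fibroblast- and microglia-like and unnamed clusters are not drawn. The qNSC-like and astrocyte-like clusters lead for Ptch1, Gli1 and Gli3, and for Gas1 OPC-like cluster 12 (135 CPM) lies in the range of the astrocyte-like clusters.

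Between the tissues, lung pericyte-like and brain mural-like cells differed past 2-fold in 2 of 5 genes, both higher in the lung (17.4% of all genes higher and 17.5% lower): Gas1 at 4.45 and Ptch1 at 3.40 (0.923–28.4), whose interval included 1.

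Other genes of the pathway were followed in 5 lists. Of the co-receptors and ligand-binding proteins, 6 of 6 with enough UMIs were higher in lung mesenchymal than endothelial-like cells, against 20.8% of all genes higher and 13.7% lower, with Gpc3, a glypican that binds hedgehog, at 365 against 11.1 CPM (ratio 32.8, 23.9–46.1), its relatives Gpc6 and Gpc4 at ratios of 15.8 and 12.5, and Boc and Cdon, co-receptors that act beside Gas1, at ratios of 9.17 and 7.11. With 10 CPM added to both levels, the median log2 ratio of that list was 2.30. Within the mesenchyme the same list split: Cdon (4.85), Boc (2.51) and Gpc4 (2.04) were higher and Gpc3 (0.424) lower in myofibroblast-like than pericyte-like cells, of 5 with enough UMIs and against 13.4% and 11.1% of all genes. Of 6, 5 were higher and 1 lower in matrix fibroblast-like than pericyte-like cells, against 15.0% and 17.3% of all genes. Among these Cdon (91.8) and Gpc3 (57.9) were higher and Gpc4 (0.0899) was lower. Set against matrix fibroblast-like cells, myofibroblast-like cells were lower in 5 of 6 and higher in Gpc4 (22.7), against 9.83% of all genes lower and 13.1% higher. In qNSC-like cells Boc (45.6) and Gpc6 (22.2) were higher than in NB-like cells, 2 of 3 with enough UMIs (22.2% of all genes), and Boc (10.4), Gpc6 (8.72) and Gpc4 (4.45) were higher than in aNSC-like cells, 3 of 4 (21.2%).

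Of the ligand and release genes, Scube2, a secreted protein that helps release ligand, was at 5.53 CPM in lung mesenchymal cells and 0 UMIs in endothelial-like cells, and Disp2, of the Dispatched family of ligand release, was at 6.00 CPM in endothelial-like and 0.0453 CPM (1 UMI) in mesenchymal cells. In all, 2 of 6 were higher and 1 lower, against 20.8% and 13.7% of all genes. Scube2 lay in matrix fibroblast-like cells at 19.9 CPM, and Scube1 was 10.2 times higher in myofibroblast-like than pericyte-like cells. Signal transduction genes mostly stayed within 2-fold. In lung mesenchymal over endothelial-like cells 3 of 15 were higher, Evc (13.6), Evc2 (10.7) and Gpr161 (2.7), the first pair being ciliary proteins that act with Smo. That count was near the 20.8% of all genes that were higher there. In qNSC-like over NB-like cells 6 of 15 were higher, led by Evc (5.99) and Evc2 (5.75), and Gsk3b (0.323) was lower, against 22.2% and 20.2% of all genes. Primary cilium genes were past 2-fold in 2 of 11 in the first comparison (Mks1 3.22 and Rpgrip1l 3.10), 0 of 11 in myofibroblast-like over pericyte-like cells and 2 of 11 in qNSC-like over NB-like cells (Mks1 3.72 and Ift122 2.41), all of them higher. None of these counts was above the share of all genes that were higher (20.8%, 13.4% and 22.2%).

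Genes described elsewhere as hedgehog targets moved both ways. In lung mesenchymal over endothelial-like cells 9 of 15 were higher, with Foxl1 at 5.89 CPM against 0 UMIs, Osr1 at a ratio of 60.0 and Foxq1 at 29.7, and 2 were lower, Ccnd1 (0.40) and Foxf1 (0.464), against 20.8% and 13.7% of all genes. In myofibroblast-like over pericyte-like cells 6 of 13 were higher (Foxq1 48.8, Osr1 24.2, Foxl1 11.7) and 3 lower (Hsd11b2 0.128, Cdk6 0.369, Foxf1 0.491), against 13.4% and 11.1% of all genes. In matrix fibroblast-like over pericyte-like cells 6 of 15 were higher (Osr1 211 and Sfrp1 204 among them) and 6 lower (Foxf2 0.0338, Foxf1 0.0466 and Cdk6 0.0907 the furthest), against 15.0% and 17.3%. In qNSC-like over aNSC-like cells 4 of 8 were higher, Bcl2 (9.26), Nkx6-2 (9.20) and Sfrp1 (5.35) the furthest, and 4 lower, with the cell cycle genes Cdk6 (0.0737), Ccnd2 (0.0880) and Ccnd1 (0.374) the furthest, against 21.2% and 19.4%. Between lung and brain endothelial-like cells Foxf1, a forkhead factor of lung endothelium, was at 585 and 63.4 CPM, and Foxq1 at 1.14 and 632 CPM.

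Whether the target genes were found in the same cells was looked at in the 2 Gli1-bearing lung classes and in brain astrocyte-like and qNSC-like cells. Of the 110 myofibroblast-like cells with a Gli1 UMI, 27.3% (19.2–36.6) had a Ptch1 UMI and 33.6% (24.9–43.3) an Hhip UMI, against 14.1% (11.9–16.6) and 23.3% (20.6–26.2) of the 893 cells without. Gas1 was at 45.5% and 45.6% and Gli2 at 9.09% and 8.17%. The median depth was 6795 and 6610 UMIs. At 1000 UMIs per cell, Ptch1 was found in 2 of the 21 cells that kept a Gli1 UMI (9.52%) and in 2.24% of the rest. Hhip went the other way, in 1 of the 21 (4.76%) and in 8.66% of the rest. In the 160 Gli1-positive matrix fibroblast-like cells, which were deeper (median 9472 against 8466 UMIs), Ptch1 was at 11.2% against 9.53% and Hhip at 32.5% against 26.2%.

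The likeness of patterns was described by Pearson's r of log2(CPM + 10) over the 18 classes with at least 50 cells, which share 2 libraries and differ in depth. Among 12741 genes, those closest to Dhh were Cytl1 (0.992), Fam167b (0.987), C1qtnf9 (0.986), Cd300lg (0.985) and Btnl9 (0.980), each highest in lung endothelial-like cells. For Dhh these values rest on that class alone, since every other of the 18 classes was at 3.96 CPM of Dhh or below. Closest to Gli1 were Ephb3 (0.839), Frem1 (0.831) and Penk (0.814), to Hhip Gas7 (0.812), Qpct (0.805) and Smtnl2 (0.801), to Ptch1 Ndp (0.836), to Gas1 Scpep1 (0.847) and Fzd2 (0.828), to Gli2 Scara3 (0.933) and to Gli3 Raver2 (0.863). Within the pathway r was 0.886 for Gli2 and Gli3, 0.831 for Gli1 and Gas1, 0.756 for Ptch1 and Gli1, 0.674 for Gli1 and Hhip and 0.308 for Gli2 and Hhip. For Dhh with the others it ran from -0.306 to 0.0845.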

How the data were processed

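Adult mouse Nes-GFP+ cells from brain and lung were sorted, captured on 10x Chromium and deposited as 1 table of UMI counts per gene and cell for each tissue. Per the labels (the submitters' processing notes), the authors made these counts with bcl2fastq 2.19.1.403, UMI-tools 1.0.0, STAR 2.7.1a and featureCounts 1.6.4 on mm10, while the study's methods name a later UMI-tools version. The annotation and strand setting are not given in the sources used here. The barcodes in the tables, 4640 and 5981, match the cell numbers that the study states, and its limits (more than 200 and fewer than 4000 genes, under 40% mitochondrial UMIs) left 4151 and 5608. Of the barcode sequences 15 occurred in both libraries, 11 of them among kept cells. No table column was left unmapped.

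Each library was clustered in Seurat 5.3.0 (R 4.3.3; genes in at least 3 cells, 2000 variable genes, from which hedgehog and cell cycle genes were then dropped, 20 principal components, resolution 0.8). A cluster took a name when its mean marker score was at least 1, with a lead of at least 1 over the next name or an own marker among its 10 leading genes, and at least 3 markers in at least 20% of cells. Clusters with a median depth under the library's divided by 3 and no own marker leading stayed unnamed. This rule on the lead was set after the clusters were seen. Scrublet (scanpy 1.11.5) called 44 (1.06%) and 74 (1.32%) doublets, which were kept and left out in an alternative. Sums, exact intervals and ratios were computed in Python 3.11.15 with scipy 1.17.1, and the ratio step was tested on simulated data. Shares at 1000 UMIs are expected shares after thinning each cell, with shallower cells left out. All member genes are named, and from each other list the 3 furthest past 2-fold in each direction at most, by rule (Boc and Cdon in lung mesenchymal over endothelial-like cells were named outside it, after their values were seen); genes most like a member are the 5 with the highest r. The member genes and lists were chosen with earlier results of these data known. Of 5 further lists (7 ligand and release, 7 co-receptor, 17 signal transduction, 11 cilium and 17 target genes, 1 gene being in 2 lists), 1 gene, Grk2, had no counts under that name. A gene that the naming rule would give is not reported here. Library alternatives, gates and thinning are summarised in the closing section.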

Additional observations from a re-analysis of the deposited data

Results flagged for a closer look

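Hhip stood out among the brain barcodes that the limits left out. The 489 barcodes outside the limits held 152 Hhip UMIs, or 22.7 CPM (19.2–26.6), in 76 barcodes, against 72 UMIs and 3.69 CPM (2.89–4.65) in the 4151 kept cells. All of these UMIs were in the 418 barcodes with 4000 genes or more. When the upper limit was dropped and the cells were clustered again, 109 of the 152 UMIs (71.7%) fell in 55 mOL-like barcodes at 92.2 CPM and 34 (22.4%) in 109 OPC-like barcodes at 20.6 CPM. These barcodes could not be told apart from doublets by their gene number alone, and this was not tested.

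Unnamed lung clusters outside the comparisons also held pathway genes. Cluster 9 (191 cells, median 1743 UMIs, led by Nrxn3) had Gli3 at 87.2 CPM (58.8–124), above every named lung class, from 30 UMIs, with Hhip at 105 CPM and Gli1 at 40.7 CPM. Its best marker score was that of myofibroblasts, and it was left unnamed for its low depth. Cluster 16 (99 cells, led by Ptn, C3, Mmp9, Apod and Il34) had Gas1 at 725 CPM (668–785), with a UMI in 84.8% of cells, above the 472 CPM of matrix fibroblast-like cells.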

How the results depend on the processing

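No paired analysis was possible because there was 1 library per tissue, and for the same reason no replicate could be left out. The number of pathway genes past 2-fold stayed at 6 for lung mesenchymal over endothelial-like cells and at 5 for matrix fibroblast-like over pericyte-like cells under every alternative run, and was 5 or 6 for myofibroblast-like over pericyte-like cells. Over all comparisons, 80 of 99 such counts stayed within 1.5 times the reported one. For qNSC-like over astrocyte-like cells the reported 1 became 2 with no upper limit on genes, 2 with at least 500 genes and under 20% mitochondrial UMIs, 2 at resolution 1.2, 0 (of 4 with enough UMIs) with thinned counts and 3 with the largest cluster left out. For qNSC-like over aNSC-like cells the 5 became 3 at resolution 1.2, 1 (of 4) with a marker gate and 2 (of 2) with thinned counts. For lung over brain endothelial-like cells the 4 became 2 (of 4) with a marker gate, and 2 of 2 each with thinned counts, a minimum of 50 UMIs and the largest cluster left out. For myofibroblast-like over matrix fibroblast-like cells the 1 became 2 with thinned counts and 5 with the largest clusters left out. Thinned counts gave 3 of 3 for qNSC-like over NB-like cells and 2 of 2 for qNSC-like over endothelial-like cells, which also gave 2 of 2 with a minimum of 50 UMIs. In these runs of 2 of 2 or 3 of 3, fewer genes reached the minimum of UMIs, and each that did was higher. A gene can reach that minimum through the class where it is high alone. With a minimum of 50, Gas1 (272 against 3 UMIs) and Gli3 (74 against 3) did so for qNSC-like over endothelial-like cells. These runs therefore cannot show whether the reported counts hold. For lung pericyte-like over brain mural-like cells the 2 became 1 (of 4) with thinned counts and 1 (of 2) with the largest cluster left out. Classes of a single cluster, such as qNSC-, aNSC-, brain mural- and brain endothelial-like cells, stayed whole in the runs without the largest cluster. Among 532 ratios 450 stayed inside the reported interval, 78 moved and 4 turned direction. A turn was counted only for a ratio reported past 2-fold. A further 12 ratios had no value because the second class fell to 0 UMIs. The 4 turns were as follows: the marker gate took qNSC over aNSC from 2.86 to 0.907 for Ptch1 and from 3.61 to 0.975 for Gas1, and Gli3 in lung over brain endothelial-like cells went from 2.04 to 0.896 as a mean over cells and 0.785 with thinned counts (5 UMIs). Ratios reported within 2-fold also crossed 1 without being counted as turns. Among them were Hhip in myofibroblast-like over matrix fibroblast-like cells (1.37 to 0.210) and Gli2 in qNSC-like over aNSC-like cells (1.64 to 0.605). The ratio of Gli1 to pericyte-like cells ran from 14.4 to 59.4 in matrix fibroblast-like and from 4.94 to 35.5 in myofibroblast-like cells, and that of Dhh between lung and brain endothelial-like cells from 3.30 to 20.9. At resolution 0.4 no cluster took the name aNSC-like. The ratio of Hhip without 1 endothelial-like cell, and those between lung endothelial-like clusters without called doublets, were added after the data were seen. The causes of these changes were not tested.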
